A study of Mus musculus with 8 samples.

Results

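Loss of Pggt1b in effector regulatory T (eTreg) cells was examined by comparing the 2 Pggt1b-deficient eTreg libraries with the 2 wild-type (WT) eTreg libraries, 4 of the 8 ATAC-seq libraries of the series, over all 79758 deposited sites. The Pggt1b product is the catalytic part of a prenylation enzyme (GGTase-I), which attaches a lipid to its protein substrates and so lets them act at membranes. Treg cells restrain immune responses, and effector Treg cells are their activated form, while central Treg (cTreg) cells are the resting form that recirculates through lymphoid organs. In ATAC-seq a transposase cuts open chromatin, so the number of reads at a site measures how accessible the DNA is there.

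Cells were Treg cells sorted from the spleen and lymph nodes of mice whose marrow had been rebuilt from a mixture of donors. Groups were WT cTreg, WT eTreg, Pggt1b-deficient cTreg and Pggt1b-deficient eTreg, with 2 libraries each, known from the sample titles. The labels name no age, Pggt1b allele, Cre driver, host or gate that separated eTreg from cTreg. They also leave unsaid whether each library is a separate mouse, so p-values measure the spread between libraries, which may be technical. Sites are given by their position on the mouse build mm9, and no site was assigned to a gene. The labelled cell type and the deletion itself were therefore not checked against gene loci.

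The Pggt1b-deficient eTreg libraries held 2255214 and 1664702 counts, against 11194290 and 14974253 in WT eTreg. A single count was worth 0.448 and 0.593 CPM, the count scaled to a common library size, in the former and 0.0927 and 0.0679 CPM in the latter. The common dispersion, a measure of the spread between libraries of a group, was 0.0435 in Pggt1b-deficient eTreg and 0.0102 in WT eTreg. These 2 libraries stand apart from the other 6 in depth and spread and are the whole group. Their log2 CPM correlated at 0.81 with each other, against 0.971 between the WT eTreg libraries. A difference in library quality therefore cannot be told apart from one of genotype. With all libraries thinned to the smallest, 3622 sites were called, 3333 of them among the 8354 calls reported next.

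Accessibility changed in both directions. Of 75352 sites tested with edgeR's quasi-likelihood test, Pggt1b-deficient eTreg had 3511 (4.66%) higher and 4843 (6.43%) lower at an adjusted p under 0.05. The median log2 fold change was 1.28 among the higher sites and -1.51 among the lower sites, against -0.09 over all tested sites. At least 2-fold changes were called at 2236 higher and 3486 lower sites. The fit shares its estimate of spread over all groups, while the Pggt1b-deficient eTreg group alone had a larger one, and on simulated counts with each group's own dispersion the share of false calls was above the threshold. With the 4 eTreg libraries alone 5340 sites were called, and with limma-voom weighted by group 4586. Because the cells were measured in bulk, a shift in the mixture of cells within the sort and a change of chromatin within each cell cannot be told apart.

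Which direction held more calls depended on the test. Higher sites were 42% of calls in this fit, 52.7% with DESeq2, 55.9% with limma-voom weighted by group and 51.9% among sites with a mean count of at least 20. Without WT eTreg replicate 1, WT eTreg replicate 2 or Pggt1b-deficient eTreg replicate 1 the calls numbered 5386, 4569 and 5092, against 8354 with all libraries. No site called both here and in an alternative fit changed direction, which follows in large part from refitting the same libraries. Of the 8354 calls, 72% were also called with DESeq2, 54% with limma-voom weighted by group and 39.9% after thinning to the smallest library. The share was 97.9% without the filter on low counts.

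The called sites were mostly separated between groups, which follows in large part from calling them on these same libraries. CPM did not overlap between genotypes at 3427 of the 3511 higher sites and 4842 of the 4843 lower sites. Over all tested sites, 21% were higher and 31.5% lower without overlap. The Pggt1b-deficient eTreg libraries lay within 2-fold of each other at 84.3% of the higher sites and 62.4% of the lower sites. Among 46000 sites with a mean count of at least 20, log2 ratios formed from replicate 1 of each genotype and from replicate 2 of each correlated at r = 0.462 and had the same sign at 65.6%. This correlation is across sites, which are not independent replicates. At the 3009 sites where both ratios reached 2-fold, 96.2% had the same sign.

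Called sites were more frequent among strong and wide sites. In the lowest 20% of sites by mean CPM, 0.922% were called higher and 2.63% lower, and in the highest 20% the shares were 8.63% and 11.9%. With sites ordered by WT eTreg CPM alone, the lowest 20% had 4.97% higher and 0% lower. The median there was 0.969 CPM over both genotypes, and 1 Pggt1b-deficient eTreg count is worth 0.448 or 0.593 CPM. A fall could thus hardly be called in that class, and ordering by WT values alone favours rises in it. Sites of up to 100 bp were called higher at 2.28% and lower at 2.82%. For sites over 400 and up to 800 bp these shares were 8.12% and 12.7%, and for sites over 800 bp 9.46% and 10.1%. Counts per site rise with level and width too, and their part in these shares was not tested.

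**Figure D1:**
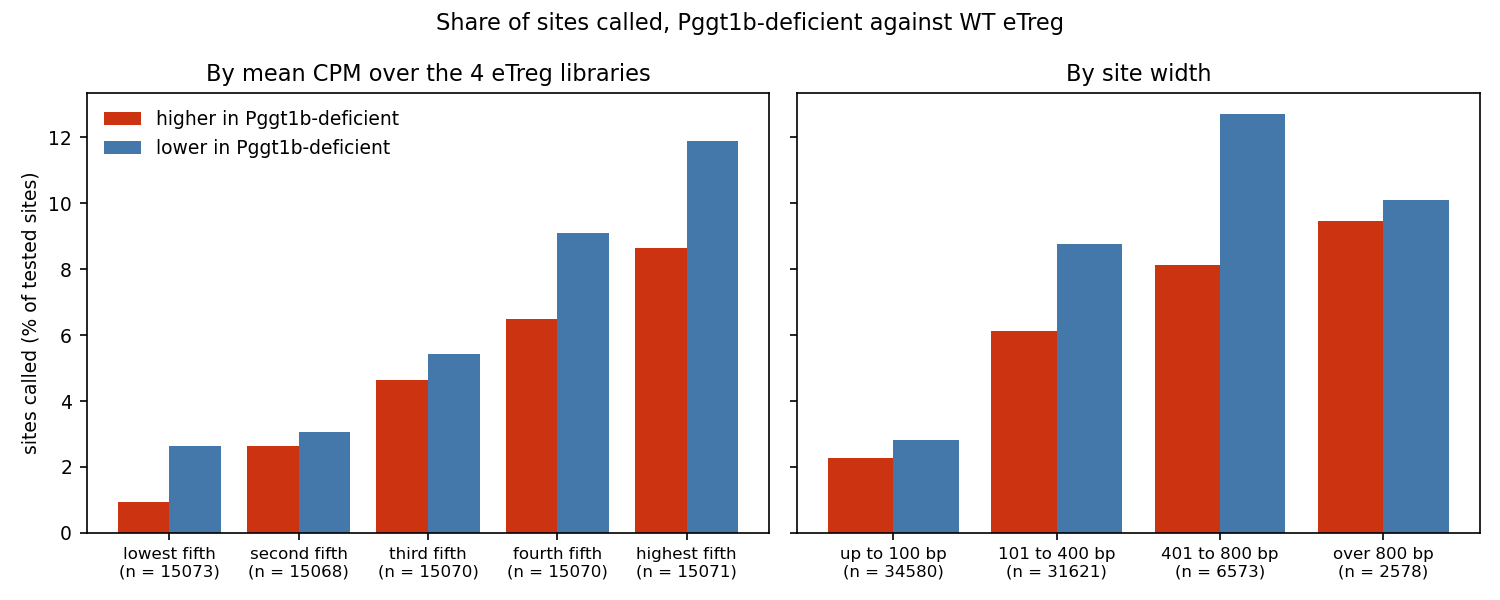
Percentage of tested sites called higher (red) or lower (blue) in Pggt1b-deficient than in WT eTreg, in classes of 20% by mean CPM over the 4 eTreg libraries (left) and by site width (right), with the number of sites tested under each class. Shares rise from 0.922% and 2.63% in the lowest class to 8.63% and 11.9% in the highest.

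Calls were spread over the genome, and chromosomes 11 and 19 were the clearest exceptions to the excess of lower calls in this fit. That excess was absent under some other fits, and calls per chromosome were counted in this fit only. On chromosome 11, 203 sites rose and 100 fell, and the median over its 4022 tested sites was 0.06 on the log2 scale. Chromosome 11 held 4.27% and 4.16% of the counts in Pggt1b-deficient eTreg, against 3.82% and 3.84% in WT eTreg. In cTreg it held 4.41% and 4.37% of the counts in the Pggt1b-deficient libraries and 4% and 3.89% in the WT libraries, so both subsets had a larger share where Pggt1b was lost. Chromosome 19 had 89 higher and 64 lower calls, with 2.19% and 2.06% of counts against 1.93% and 1.97% in WT eTreg. Chromosome 5 was nearly balanced, with 231 higher and 229 lower. Every other chromosome had more lower than higher calls, the widest gap being on chromosome 2, with 232 higher and 476 lower.

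Named sites were chosen by the smallest p in each direction among sites with a mean count of at least 20, groups that do not overlap and libraries within 2-fold of each other. This rule was met by 2274 higher and 3012 lower sites, and 12 in each direction are described. Their values are a description of what the rule selected.

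Among the higher sites, the 3 with the smallest p lay on contigs that mm9 does not place on a chromosome. At NT_166473:10447-10671, CPM was 368 and 291 in Pggt1b-deficient eTreg and 55.8 and 49.9 in WT eTreg, a log2 fold change of 2.65 (SE 0.15, adjusted p = 1.03e-15). Pggt1b-deficient cTreg replicate 2 was also raised there, at 102 CPM, while replicate 1 was at 52.4 and the WT cTreg libraries at 56.9 and 50.1. All 4 tested sites of contig NT_166476 were called higher, and their summed CPM was 806 and 535 against 96.7 and 105 in WT eTreg. Pggt1b-deficient cTreg replicate 2 again stood at 200, with 96.9 in replicate 1. Unplaced contigs held 0.317% and 0.279% of counts in Pggt1b-deficient eTreg and between 0.181% and 0.204% in the other 6 libraries. Without unplaced contigs 3493 higher and 4833 lower calls were left.

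The remaining 9 higher sites lay on chromosomes. The site chr16:44358070-44358346 had 148 and 278 CPM in Pggt1b-deficient eTreg and 45.3 and 41.5 in WT eTreg, a log2 fold change of 2.27 (SE 0.14, adjusted p = 8.77e-15). Its Pggt1b-deficient eTreg libraries differed from each other more than at the other named higher sites, but both exceeded every other library, of which the highest was 105 CPM in Pggt1b-deficient cTreg. At chr18:79454167-79455003, 147 and 117 CPM stood against 36.1 and 43.2, a log2 fold change of 1.74 (SE 0.12, adjusted p = 1.49e-13). Both cTreg genotypes lay between these groups, at 81.7 and 92.8 CPM in WT and 94.5 and 90.3 CPM in Pggt1b-deficient cells.

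WT eTreg had the lowest mean CPM of the 4 groups at every named higher site on a chromosome, and 6 more of these sites follow. The site chr5:107509025-107509233 had 52.9 and 51 CPM in Pggt1b-deficient eTreg and 14.2 and 12.6 in WT eTreg, while WT cTreg had 46 and 47.4 and Pggt1b-deficient cTreg 51.8 and 57.3. At chr14:17005766-17006384 the eTreg values were 88.8 and 85.3 against 33.6 and 34.6 CPM, and WT cTreg had 81.9 and 78. The site chr15:25622099-25622636 rose from 5.19 and 4.62 CPM to 28.7 and 32, a log2 fold change of 2.63 (SE 0.22, adjusted p = 9.79e-11), with 22.2 and 24.1 CPM in WT cTreg. Pggt1b-deficient eTreg was above WT cTreg at each of these 3 sites.

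At chr3:61213559-61214084, Pggt1b-deficient eTreg had 86.6 and 79.4 CPM, WT eTreg 23.3 and 24.3, WT cTreg 64.7 and 61.8, and Pggt1b-deficient cTreg 85.6 and 70.7. At chr19:21179028-21179434 the values in the same order were 65 and 58.1, 14.6 and 16.2, 38.7 and 40.1, and 54.2 and 48.7. The site chr10:120857078-120857407 had 76.2 and 83 CPM in Pggt1b-deficient eTreg and 28.2 and 28.7 in WT eTreg, and stayed below WT cTreg at 98.5 and 98.

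The site with the highest CPM among the 12 was chr4:16089736-16091598, 1862 bp wide. It had 763 and 702 CPM in Pggt1b-deficient eTreg and 393 and 381 in WT eTreg, with a log2 fold change of 0.92 (SE 0.07, adjusted p = 1.86e-12). WT cTreg, at 395 and 452 CPM, was near WT eTreg here. Of the 9 tested sites within 10 kb of it, none was called higher and 1 was called lower.

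The 12 lower sites had 48 to 146 CPM in WT eTreg and 9.42 to 69.9 in Pggt1b-deficient eTreg, with log2 fold changes from -2.3 to -1.25. The site with the smallest p, chr8:79425520-79426606, fell from 146 and 144 CPM to 35.9 and 54.5 (log2 fold change -1.71, SE 0.14, adjusted p = 6.75e-11). In cTreg it fell from 33.3 and 26.3 CPM to 12.3 and 14.1, so each subset lost accessibility from its own level. At chr7:58979482-58979677 the eTreg values were 84.9 and 89.8 CPM in WT and 23.8 and 20.1 in Pggt1b-deficient cells, and the cTreg values 10.6 and 9.19 against 3.7 and 5.38. Both sites had a lower level in WT cTreg than in WT eTreg.

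The site chr6:122477704-122478107 changed by a like amount in both subsets. It had 59.1 and 65.2 CPM in WT eTreg and 14.8 and 19 in Pggt1b-deficient eTreg (log2 fold change -1.9, SE 0.19, adjusted p = 5.75e-09). In cTreg the values were 14.3 and 15.4 against 3.36 and 4.14, a log2 fold change of -1.99 (SE 0.21, adjusted p = 4.89e-08). The interaction of genotype and subset was 0.09 with an adjusted p of 0.927.

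Other lower sites fell further in eTreg than in cTreg. At chr13:97257228-97257825, WT eTreg had 90.6 and 96.3 CPM and Pggt1b-deficient eTreg 19.3 and 27.9, a log2 fold change of -2.02 (SE 0.17, adjusted p = 9.14e-11), against -0.58 in cTreg, and the interaction had an adjusted p of 0.000236. At chr17:87518224-87518973 the Pggt1b-deficient eTreg values were 30.5 and 31.4 CPM, below the 34.7 and 40.9 of Pggt1b-deficient cTreg, whereas WT eTreg at 93.2 and 99.2 was above WT cTreg at 54 and 50.4. The order of the subsets thus differed between genotypes at this site. The same held at chr12:41153867-41154724, with 17 and 33.2 CPM in Pggt1b-deficient eTreg and 39.3 and 44.2 in Pggt1b-deficient cTreg, against 78.1 and 77.4 in WT eTreg and 58.4 and 60.5 in WT cTreg.

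The 3 deepest falls among the 12 were at sites where WT eTreg lay far above WT cTreg. Their WT eTreg levels were themselves among the lowest of the 12. At chr5:87170270-87170433, 163 bp wide, WT eTreg had 48 and 50 CPM, Pggt1b-deficient eTreg 9.42 and 10.7, and WT cTreg 3.95 and 4.43 (log2 fold change -2.3, SE 0.23, adjusted p = 5.48e-09). The site chr7:50736303-50737104 had 59.2 and 63.2 CPM in WT eTreg against 11.7 and 16.6, and chr3:132454174-132454603 had 61.4 and 67.3 against 16.1 and 15.4. Pggt1b-deficient eTreg stayed above Pggt1b-deficient cTreg at these 3 sites, where the latter had at most 6.35 CPM.

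**Figure D2:**
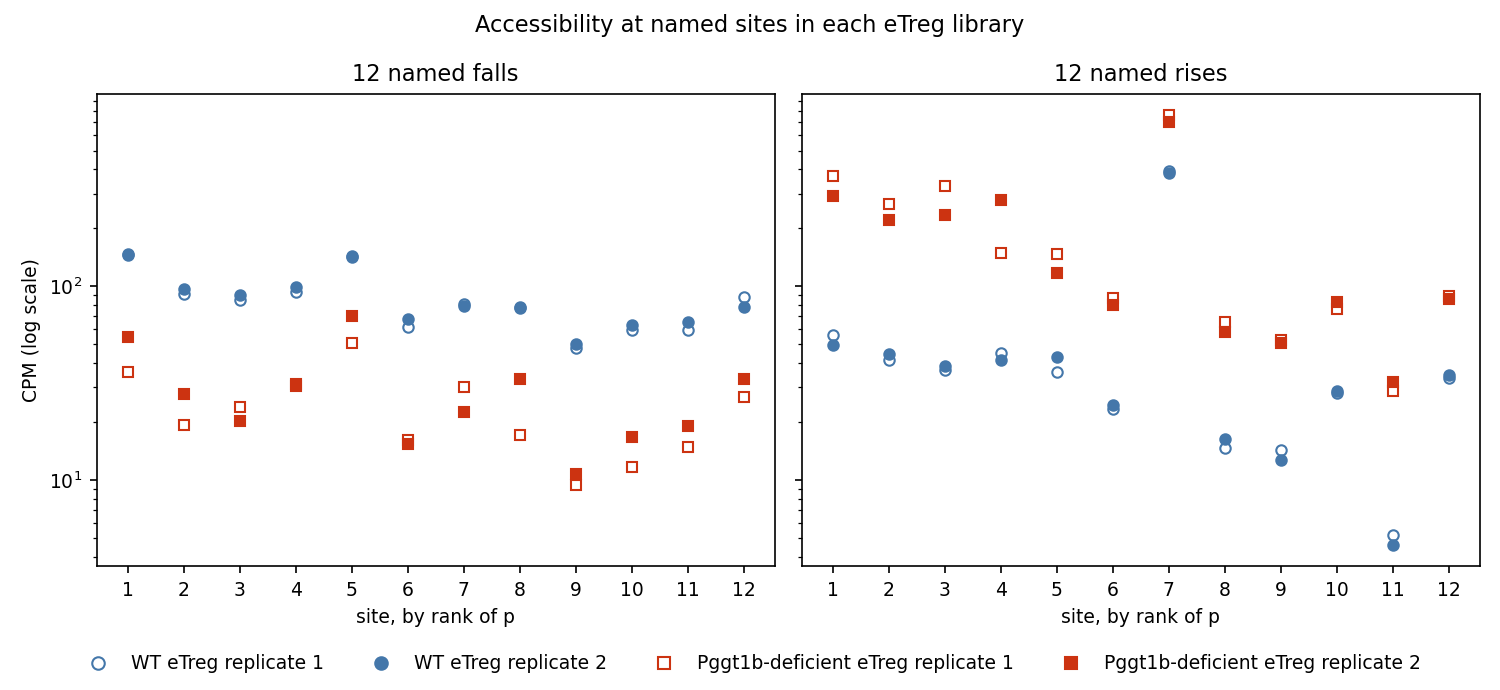
CPM on a log scale in each eTreg library at the 12 named lower sites (left) and 12 named higher sites (right), ordered by p, with circles for WT, squares for Pggt1b-deficient cells, open symbols for replicate 1 and filled symbols for replicate 2. The groups are separated at every site because the rule required it, and the lower sites span 9.42 to 69.9 CPM in Pggt1b-deficient eTreg.

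The genotype difference was also tested within cTreg in the same fit. Its group means come from other libraries than those of the eTreg contrast, but both tests share the estimate of spread. There 399 sites (0.53%) were called higher and 1270 (1.69%) lower in Pggt1b-deficient cells. Of the 4843 lower sites in eTreg, 720 were called in cTreg, 718 of them lower. Over all 4843 the median log2 fold change in cTreg was -0.4, against -0.03 over all tested sites. Of the 3511 higher sites, 189 were called in cTreg, 181 of them higher, and the cTreg median over all 3511 was 0.19. Among the named sites, 10 of 12 lower and 5 of 12 higher were called in cTreg. These 5 include the named sites on unplaced contigs, at adjusted p from 0.0431 to 0.0499 in this test. At those contig sites only replicate 2 of Pggt1b-deficient cTreg was raised, while replicate 1 was near the WT cTreg level. With all libraries thinned to the smallest, 98 sites were called in cTreg.

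A test of the difference between the subsets called 1139 sites (1.51%). They included 670 of the 3511 sites called higher in eTreg and 383 of the 4843 called lower. This test shares the eTreg libraries with the calls it is set beside. For the remaining sites a different effect in cTreg was not shown, and a like effect was not shown either. The count was 589 and 582 without WT eTreg replicates 1 and 2, 2035 without Pggt1b-deficient eTreg replicate 2, and 128 after thinning.

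Sites without any count in Pggt1b-deficient eTreg were judged at equal depth. In the 2 pooled libraries, 4966 sites (6.23%) had no count. The WT eTreg pool of 26168543 counts had 2051 such sites (2.57%) when thinned to 3919041 by drawing single counts. When thinned to 3922720 by drawing counts in pairs, it had 5078 (6.37%). Most low counts were even, at 67.3% to 77.4% of counts from 1 to 10 in the eTreg libraries. The excess of empty sites in Pggt1b-deficient eTreg was thus present with single counts and not with pairs.

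A stricter count leaves a difference in the same direction under both draws. Sites empty in Pggt1b-deficient eTreg with at least 10 counts in the thinned WT pool numbered 360 with single counts and 527 with pairs. The reverse, empty in thinned WT with at least 10 counts in Pggt1b-deficient eTreg, numbered 95 and 399. Of the 4843 lower calls, 592 (12.2%) had no count in Pggt1b-deficient eTreg, where the WT level scaled to its depth gave between 5.69 and 47 counts, with a median of 9.59. Only 30 of these had 20 or more.

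The 6 empty sites with the most WT counts were 121 to 305 bp wide. A floor of 6 counts over the group, equal to 3 pairs, sets the bound on each fold and covers counting error only. It makes no allowance for the choice of these sites by their empty and high counts, which favours large folds. At chr2:136357765-136358070, WT eTreg had 82 and 232 counts (7.6 and 15.7 CPM), and the bound against the WT mean was 7.62-fold. The WT libraries differed there, and against replicate 1 alone the bound was 4.96-fold. At chr14:123378177-123378309, with 118 and 135 counts (10.9 and 9.16 CPM), the bound against the WT mean was 6.56-fold. For chr1:93839253-93839374 the WT counts were 76 and 165, and the bound was 5.96-fold.

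At the other 3 empty sites the bounds were 5.42-fold for chr17:78703533-78703784, 5.3-fold for chr10:36656210-36656384 and 5.14-fold for chr9:21658569-21658699. All 6 had low levels in cTreg, from 0.475 to 2.93 CPM in WT, and none was called in the cTreg comparison. Their adjusted p-values in eTreg ran from 3.83e-06 to 3.07e-05. With a count worth 0.448 or 0.593 CPM, a level as low as that of cTreg is close to the limit of detection in the Pggt1b-deficient eTreg libraries.

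Changed sites were read by neighbourhood in 200 kb windows with at least 10 tested sites. Of 3051 windows, 2356 held a call, 963 lower calls alone, 662 higher calls alone and 731 both. Summed CPM was higher without overlap in 26.2% of windows and lower in 39.3%. At least 5 calls in one direction with none in the other were found in 63 windows for lower and 45 for higher. The 6 windows with the most net calls in each direction are described next, and since they were chosen by their calls, their values carry no test. Their numbers of calls are sensitive to single libraries: calls in the window's own direction were fewer by over 1.5 times in 7 of the 12 windows without WT eTreg replicate 1 and in 7 without replicate 2. The same held for 6 windows without Pggt1b-deficient eTreg replicate 1 and 4 without replicate 2.

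On chromosome 13, the window 89.6 to 89.8 Mb had the deepest fall of the 6 lower windows. Its 17 tested sites summed to 173 and 181 CPM in WT eTreg and 63.7 and 59.9 in Pggt1b-deficient eTreg, and 8 were called lower and none higher. WT cTreg had 78.3 and 61.9 CPM there and Pggt1b-deficient cTreg 43.5 and 53. The site with the smallest p, chr13:89661193-89661630, fell from 34.7 and 38.6 CPM to 3.59 and 9.48 (log2 fold change -2.57, SE 0.32, adjusted p = 2.94e-07).

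A pair of neighbourhoods on chromosome 10 lost accessibility. The window 17.2 to 17.4 Mb had 131 and 147 CPM in WT eTreg against 75.3 and 53.3, with 7 of 11 sites lower, and only 25 and 24.2 CPM in WT cTreg. The window 12.6 to 12.8 Mb had 418 and 415 CPM against 251 and 303, with 13 of 30 sites lower, and 301 and 295 CPM in WT cTreg. Pggt1b-deficient eTreg thus lay near the WT cTreg level in the latter of these and well above it in the former. Pggt1b-deficient cTreg was below WT cTreg in both, at 17.7 and 21.1 CPM in the former and 256 and 280 in the latter.

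On chromosome 4, the window 144.8 to 145 Mb held the most lower calls, 14 of 72 tested sites. Its sums of 1280 and 1260 CPM in WT eTreg and 1070 and 1060 in Pggt1b-deficient eTreg differed least among the lower windows, and cTreg had 1160 in both WT libraries against 954 and 1010 in the Pggt1b-deficient ones. The site chr4:144904929-144905360 had 88.4 and 92.7 CPM in WT eTreg and 41.3 and 29.6 in Pggt1b-deficient eTreg (log2 fold change -1.33, SE 0.15, adjusted p = 2.9e-08).

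The last lower windows were on chromosomes 8 and 2. The chromosome 8 window, 79.8 to 80 Mb, had 364 and 380 CPM in WT eTreg and 220 and 226 in Pggt1b-deficient eTreg, with 8 of 29 sites lower. Within it chr8:79959875-79960421 fell from 68 and 76.8 CPM to 10.8 and 19.6. WT cTreg had 12.8 and 8.63 CPM there and Pggt1b-deficient cTreg 3.14 and 8.56. That fall in cTreg was also called by the edgeR test (log2 fold change -0.93, adjusted p = 0.0431). On chromosome 2, the window 135.6 to 135.8 Mb had 252 and 256 CPM against 163 and 142, with 9 of 18 sites lower.

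Among the higher windows, 142.8 to 143 Mb on chromosome 6 held the most calls, with 15 of 51 sites higher and 1 lower. It summed to 378 and 393 CPM in WT eTreg and 605 and 507 in Pggt1b-deficient eTreg, while WT cTreg had 584 and 575 and Pggt1b-deficient cTreg 592 and 579. On chromosome 17, the window 51.8 to 52 Mb had 232 and 216 CPM against 345 and 311, with 12 of 46 sites higher and none lower, and 380 and 406 in WT cTreg. Its site chr17:51965871-51966139 had 14.7 and 11.5 CPM in WT eTreg, 31.4 in each Pggt1b-deficient eTreg library, and 30 and 31 in WT cTreg.

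The chromosome 9 window, 80 to 80.2 Mb, had the largest ratio of the higher windows, with 246 and 262 CPM in WT eTreg and 427 and 385 in Pggt1b-deficient eTreg. Here 9 of 25 sites were higher and 1 lower. The site chr9:80153154-80153534 had 1.85 and 1.97 CPM in WT eTreg against 9.87 and 13.6 (log2 fold change 2.58, SE 0.38, adjusted p = 6.86e-06), and 9.58 and 14 in WT cTreg.

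The chromosome 7 window, 132.6 to 132.8 Mb, had 438 and 423 CPM in WT eTreg and 645 and 559 in Pggt1b-deficient eTreg, while cTreg had 454 and 459 in WT and 588 and 584 in Pggt1b-deficient cells, with 3 sites called higher. The cTreg groups were also separated in that direction in the chromosome 17 window, with 380 and 406 CPM in WT against 485 and 433, and in the chromosome 11 window, with 540 and 530 against 577 and 567, each with 1 site called higher in cTreg. In the chromosome 7 window the WT subsets differed less than those of the other higher windows. The window 46 to 46.2 Mb on chromosome 16 had 573 and 530 CPM against 696 and 689, with 10 of 30 sites higher, and 11.6 to 11.8 Mb on chromosome 11 had 412 and 422 against 496 and 535, with 11 of 52 higher and 2 lower. Under both other scalings of library size, all 12 windows kept groups that do not overlap.

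**Figure D3:**
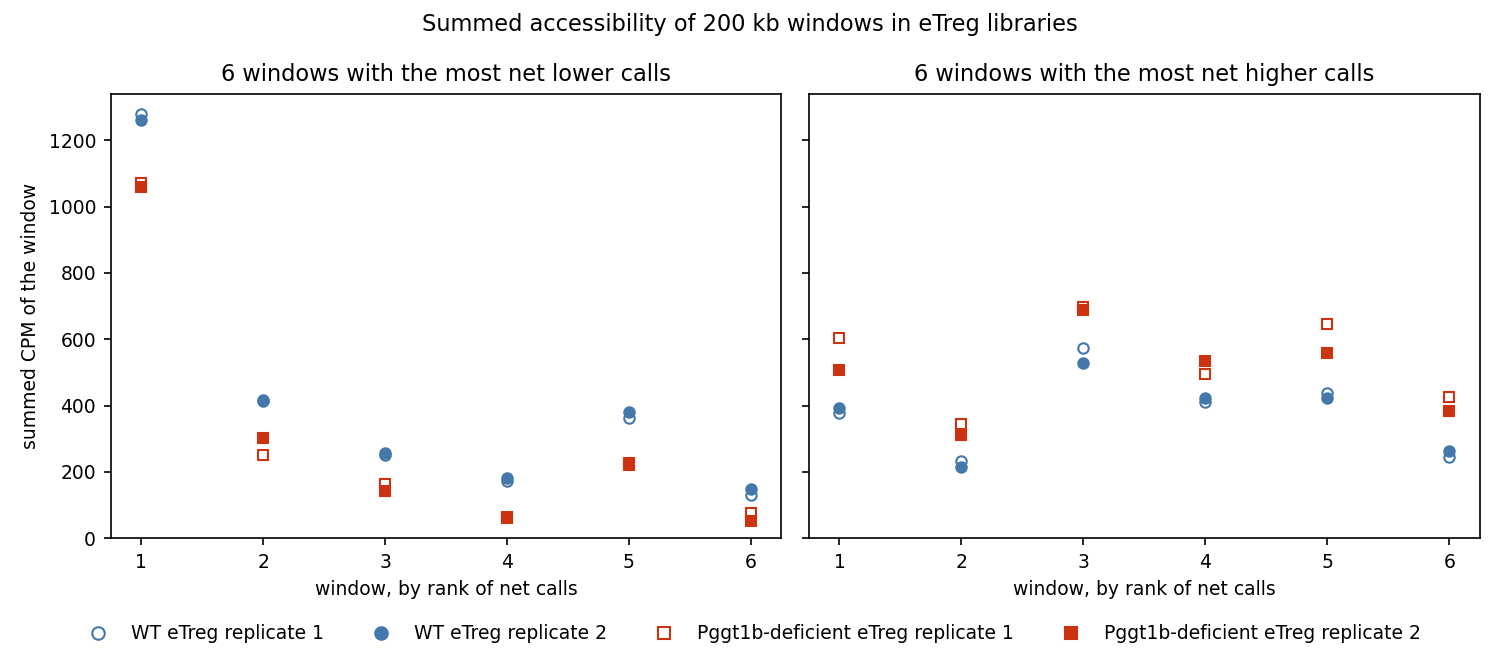
Summed CPM of all tested sites in each eTreg library for the 6 windows of 200 kb with the most net lower calls (left) and the 6 with the most net higher calls (right), with circles for WT and squares for Pggt1b-deficient cells. No window has overlapping groups, and the chromosome 4 window, ranked 1 among the lower windows, has the highest sums, from 1060 to 1280 CPM.

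Within windows, called sites were interspersed with sites that did not pass the test. In the chromosome 4 window 14 of 72 sites were called, and in the chromosome 6 window 15 higher calls and 1 lower call were found among 51 sites. A window's sum therefore combines sites that changed with others that were not shown to change.

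**Figure D4:**
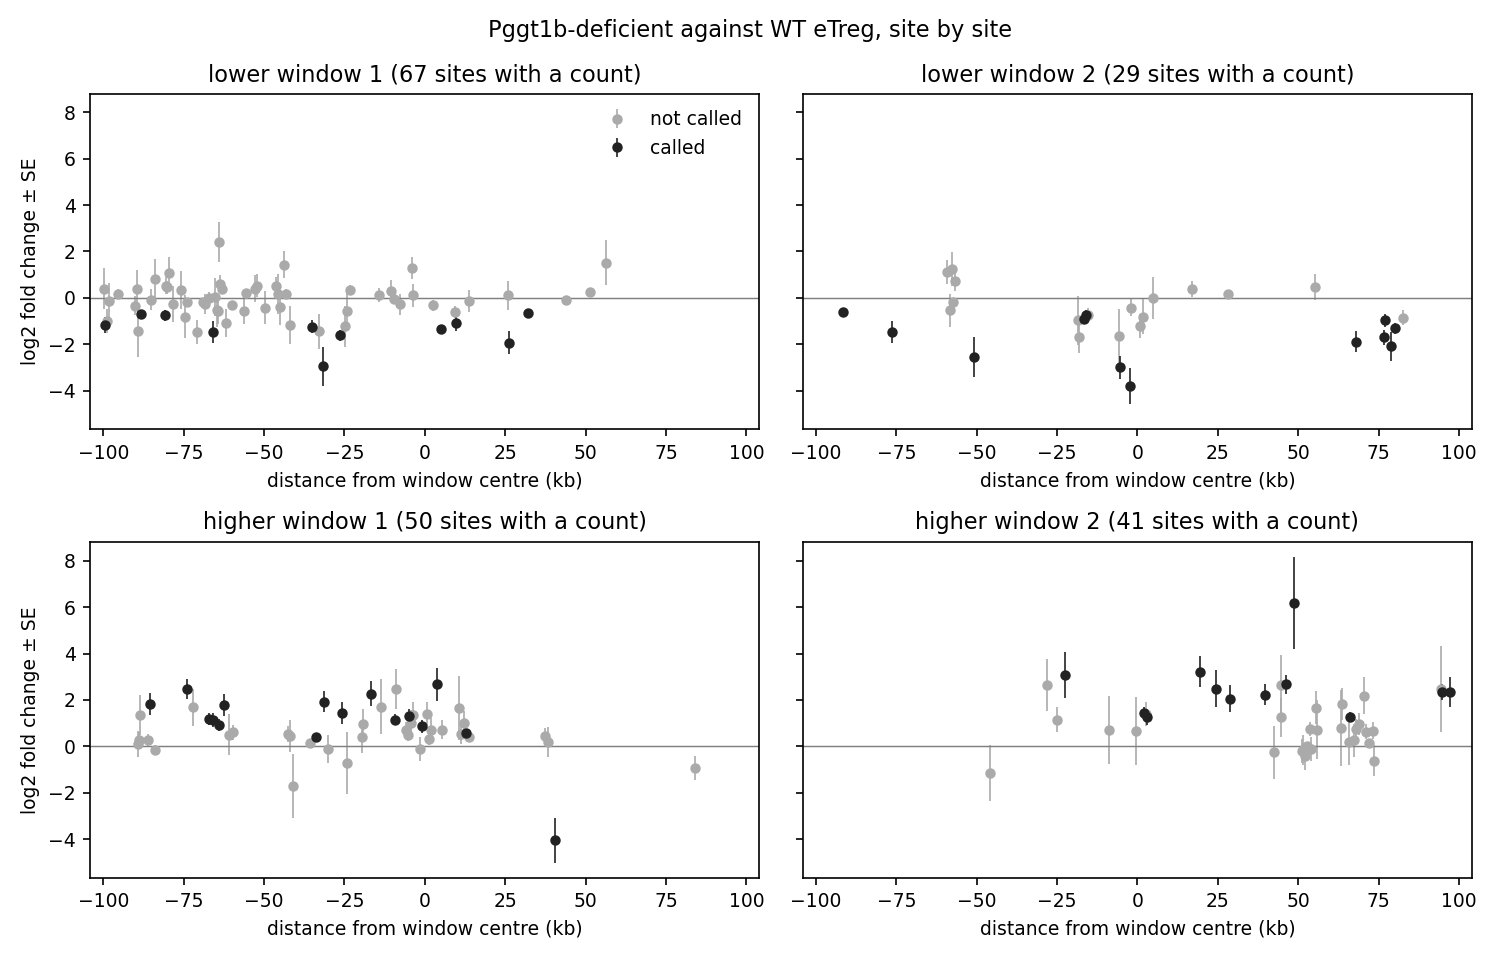
Log2 fold change with its SE at each site with a Pggt1b-deficient eTreg count, against distance from the window's centre in kb, in the lower windows of chromosome 4 and chromosome 10 at 12.6 Mb (top) and the higher windows of chromosomes 6 and 17 (bottom), with called sites in black. Called sites lie among uncalled ones in each window, and sites with no count in Pggt1b-deficient eTreg are left out.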

How the data were processed

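The authors deposited 1 table of raw counts per site for 8 ATAC-seq libraries, and all columns were matched to sample titles. Per the submitters' processing notes, Trimmomatic 0.36, Picard 2.9.4, SAMtools, MACS2 2.1.1, bedtools and the build mm9 were used. No aligner, read shift or peak threshold, nor the counting of reads as opposed to fragments, is named there. Sites made from all groups may favour the deep libraries.

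Counts were fitted in R 4.3.3 with edgeR 4.0.16 (filterByExpr, TMM, 1 mean per group over all 8 libraries, quasi-likelihood F test, two-sided, Benjamini-Hochberg). SE is |log2 fold change| / sqrt(F). CPM is scaled by TMM. DESeq2 1.42.0, limma 3.58.1, other scalings, filters, thinning and left-out libraries were alternatives, and the code was tested on simulated data, where false calls for this comparison were more frequent than the adjusted p allows. An exact start base (from 0 or 1) is not stated. Replicate numbers were not taken as pairs.

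Sites were named by these rules: called, mean count of at least 20, no overlap, libraries within 2-fold, then the 12 smallest p in each direction, plus the 6 empty sites with the most WT counts and 6 windows in each direction. Further sites within windows were picked once values were known. Members and lists were chosen with earlier results of these data known. Planned gene lists and cell type markers are not reported: no mm9 gene positions were in the tables used here. They were computed on approximate positions recalled from general knowledge, which could not be checked, and were set aside. For the same reason no sequence is shown.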

Additional observations from a re-analysis of the deposited data

Results flagged for a closer look

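The genotype effect differed between eTreg and cTreg at 23 of the 30 named sites by the interaction test in edgeR (adjusted p under 0.05). Over all tested sites the share called was 1.51%. The named sites were chosen by the eTreg comparison, whose libraries the interaction shares, so the count is no independent result.

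Among the higher sites, the log2 difference (the effect in eTreg minus that in cTreg) was 2.14 at NT_166473:10447-10671, 1.98 at NT_166476:22301-22611, 2.28 at NT_166476:23005-23272, 1.97 at chr16:44358070-44358346, 1.66 at chr18:79454167-79455003, 1.5 at chr3:61213559-61214084, 0.73 at chr4:16089736-16091598, 1.61 at chr19:21179028-21179434, 1.74 at chr5:107509025-107509233, 1.14 at chr10:120857078-120857407, 2.07 at chr15:25622099-25622636 and 1.1 at chr14:17005766-17006384.

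Among the lower sites it was -1.44 at chr13:97257228-97257825, -1.17 at chr17:87518224-87518973, -0.58 at chr2:83540579-83541499, -1.05 at chr1:155464479-155464978, -1.17 at chr12:41153867-41154724 and -1.1 at chr16:96019669-96020588.

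At sites with no count in Pggt1b-deficient eTreg the fitted difference depends on the prior count and is not given. The adjusted p of the interaction was 0.00503 at chr2:136357765-136358070, 0.0287 at chr14:123378177-123378309, 0.00453 at chr17:78703533-78703784, 0.0163 at chr10:36656210-36656384 and 0.0111 at chr9:21658569-21658699.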

How the results depend on the processing

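All 30 named sites kept their direction and their call in every alternative that could test them, except that chr4:16089736-16091598 misses a 2-fold minimum at a log2 fold change of 0.92. The sites and windows were chosen on the same libraries that the alternatives refit, so keeping call or sign follows in large part from that choice. The 12 window medians kept their sign in all alternatives run, but their calls fell: after thinning, calls in the window's own direction were fewer by over 1.5 times in all 12, and the chromosome 2 window (135.6 to 135.8 Mb) had 0 of its 9. Against 8354 calls (3511 higher, 4843 lower), fitting only the 4 eTreg libraries gave 5340 calls with 2973 lower. DESeq2 gave 2877 lower calls, and limma-voom with group weights 4586 calls with 2024 lower. Thinning to the smallest library gave 3622, with 1804 higher and 1818 lower, and a 2-fold minimum left 2236 higher. Leaving out 1 eTreg library at a time gave 4569 to 7565 calls, 2022 to 3185 higher and 2547 to 4380 lower. In cTreg, 1669 calls became 98 after thinning, 2913 with halved counts and 736 with a 2-fold minimum. The interaction's 1139 calls became 128 after thinning and 582 to 2035 with 1 library left out. The cause was not tested. Higher sites were 48.4% of calls with loess offsets and 47.2% with library totals.

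With the replicate number as a block, 7781 sites were called. Deviations of same-numbered libraries correlated between -0.0241 and 0.0871 over pairs of groups, so the numbers were not read as pairing the samples. Depth limits Pggt1b-deficient eTreg most: its median tested site had 8 and 6 counts, against 42 and 59 in WT eTreg. The thinning in pairs and the fit without unplaced contigs were chosen after seeing the data.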
